A study of Caenorhabditis elegans with 6 samples.

Results

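The genes described are the 8 superoxide dismutase and catalase genes of Caenorhabditis elegans, sod-1 to sod-5 and ctl-1 to ctl-3. They were taken by name from a table of 45836 gene rows, and all 8 had enough counts to be tested. RNA was sequenced from whole L1 larvae, many worms per sample, in 3 libraries of strain BCN6101 and 3 libraries of strain BCN1050. BCN6101 carries div-1(or148), an allele of the gene for the B subunit of DNA polymerase alpha, which primes DNA replication, and is described as EU548 with the reporter pdaf-21::mCherry. BCN1050 has the N2 background and carries the same reporter, so it is called wild type here although it is transgenic. Parents grew on OP50 bacteria at 20 °C, embryos were released by bleaching, and the larvae hatched overnight in M9 buffer, which holds no food. The labels call the 3 libraries of a group biological replicates and do not say from which cultures they came, so the p-values measure the spread between these samples. Total counts were 25051167 to 26392800 per mutant library and 25331475 to 27632878 per wild-type library. Of 16289 tested genes, 146 were past an edgeR adjusted p of 0.05 (DESeq2 called 556), 144 of them higher in div-1 larvae and 2 lower. One of the lower genes was mut-16, a scaffold of small RNA amplification, at 6.52 ± 1.84 CPM in div-1 larvae and 51.9 ± 1.46 CPM in wild-type larvae (CPM, counts scaled to a common library size; SD, n = 3 each), so the effects of div-1(or148) and of a low mut-16 level cannot be told apart. The div-1 transcript was at 35.1 ± 8.45 CPM in div-1 larvae and 32.7 ± 9.59 CPM in wild-type larvae, and a gene count cannot show the allele. Wild-type replicate 1 stood apart in genes of fat mobilisation: acs-2, an acyl-CoA synthetase that rises on fasting, was at 5.44 to 7.84 CPM in div-1 larvae, and at 879, 1.95 and 2.50 CPM in wild-type replicates 1, 2 and 3.

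Superoxide dismutases turn superoxide, a by-product of respiration, into hydrogen peroxide and oxygen, and catalases turn hydrogen peroxide into water and oxygen. Worms have an unusually large set of both. In the cytosol and in mitochondria, a steadily used and an inducible superoxide dismutase share the compartment. sod-1 encodes the main cytosolic copper and zinc enzyme and sod-5 its minor cytosolic partner, known for its rise in dauer larvae. sod-2 encodes the main mitochondrial manganese enzyme and sod-3 its inducible mitochondrial partner, a classic target of the FOXO factor DAF-16. sod-4 encodes the extracellular enzyme, in secreted and membrane-bound forms. ctl-2 encodes the peroxisomal catalase, ctl-1 a cytosolic catalase, and ctl-3 a catalase reported in neurons and pharyngeal muscle. Larvae that hatch without food arrest at L1, a state in which DAF-16 and its stress-resistance targets are known to matter.

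The 3 catalase genes stand side by side on chromosome II, on the same strand, in the order ctl-2, ctl-1, ctl-3. Their longest annotated proteins have 500, 497 and 512 residues. sod-1 and sod-5 also lie on chromosome II, apart from each other and on opposite strands, with longest proteins of 180 and 178 residues. sod-2 lies on chromosome I and sod-3 on X, with proteins of 221 and 218 residues. sod-4, on chromosome III, has 2 annotated protein models of 221 and 176 residues, and a count per gene does not separate them. Inserts were 18 to 36 nucleotides long, and how reads that fit several places were counted is not given in the sources used here, so counts are less certain among these paralogs. Names, chromosomes and lengths come from Ensembl release 115.

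sod-5 was the only member past the edgeR threshold, and it was higher in div-1 larvae. Its row held 159, 105 and 132 counts in mutant replicates 1, 2 and 3, and 15, 17 and 21 counts in the wild-type replicates. In CPM this was 5.69, 4.33 and 4.97 in div-1 larvae, and 0.615, 0.649 and 0.847 in wild-type larvae. The lowest mutant library was far above the highest wild-type library. The means were 5.0 ± 0.681 CPM in div-1 larvae and 0.704 ± 0.125 CPM in wild-type larvae (SD, n = 3 each). The rise was 7.07-fold, with a 95% interval of 4.71 to 10.6 (log2 fold change 2.82 with SE 0.252; Benjamini-Hochberg adjusted p = 0.00345, quasi-likelihood test of edgeR). In RNA of whole larvae, more cells with the transcript and more transcript per cell cannot be told apart. sod-5 ranked 23 among all tested genes by log2 fold change and 20 by p. 1 of 8 members was thus called, in the higher direction, where 0.896% of all tested genes were called and 0.884% called higher. The other 7 members did not pass the threshold. None was called lower by edgeR, where 0.0123% of all tested genes were, and none by DESeq2 or limma voom. At an unadjusted p under 0.05 (edgeR), sod-2 was the 1 lower member and sod-5 the 1 higher member. At that threshold 2.44% of all tested genes were lower and 8.26% higher. By sign alone, 4 of the 8 members had a positive log2 fold change, beside 46% of all tested genes.

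**Figure D1:**
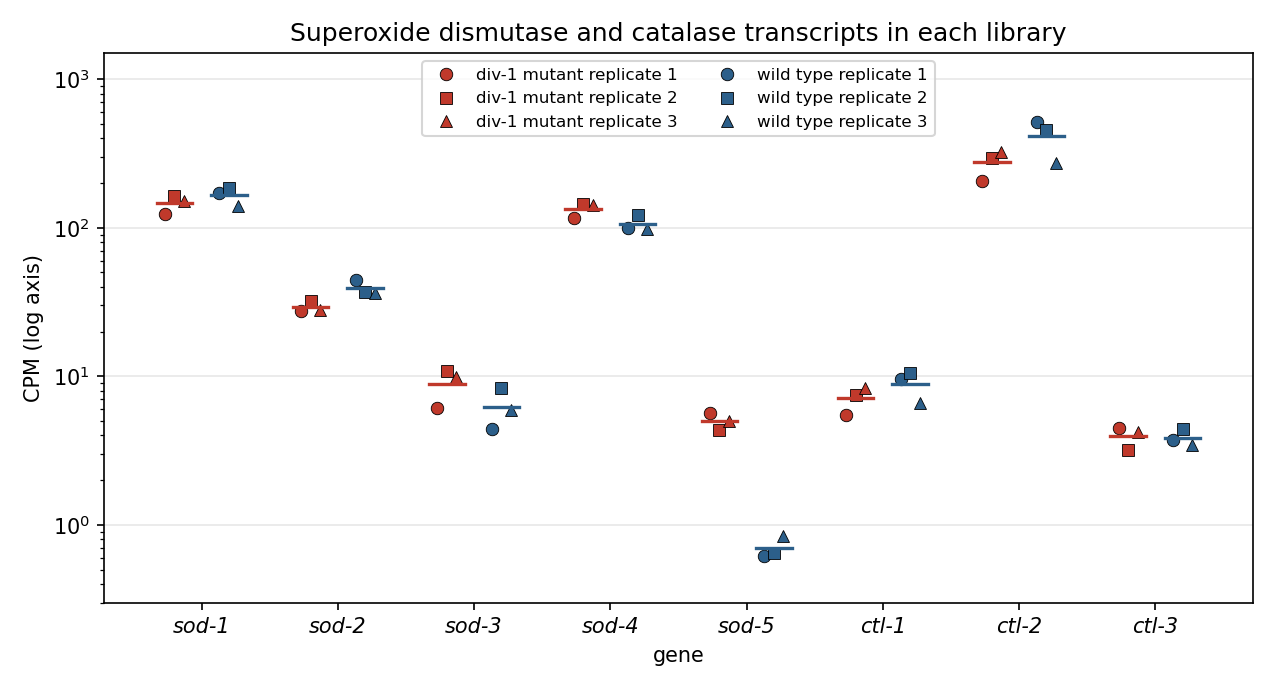
CPM of each member (log axis) in the 3 div-1 mutant libraries (red, left of each pair) and the 3 wild-type libraries (blue), with symbols for replicates and bars for group means. sod-5 lies between 4.33 and 5.69 CPM in div-1 larvae and between 0.615 and 0.847 CPM in wild-type larvae, while sod-1, sod-3, sod-4, ctl-1, ctl-2 and ctl-3 overlap between groups.

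The call of sod-5 held when any 1 library was left out, with log2 fold changes of 2.72 to 2.97 and edgeR adjusted p values of 0.00891 to 0.0351. Counts of its cytosolic partner sod-1 were 3478, 3953 and 4024 in div-1 larvae and 4168, 4854 and 3454 in wild-type larvae. sod-1 averaged 146 ± 19.8 CPM in div-1 larvae and 165 ± 23.6 CPM in wild-type larvae (SD, n = 3 each). Its groups overlapped, and its log2 fold change was -0.17 with a 95% interval of -0.56 to 0.21 (adjusted p = 0.757, edgeR). It lay between -0.07 without mutant replicate 1 and -0.29 without wild-type replicate 3, and was -0.09 without wild-type replicate 2 and -0.27 without mutant replicate 2. The ratio of sod-5 to sod-1 counts, which no scaling of the libraries can move, was 0.0350 ± 0.00977 in div-1 larvae and 0.00439 ± 0.00146 in wild-type larvae. Every mutant library was above every wild-type library in this ratio (two-sided exact permutation p = 0.1, below which 3 libraries against 3 cannot go, and p = 0.14 adjusted over 7 ratios). Even so, sod-5 gave only 1.58% ± 0.414 of all superoxide dismutase counts in div-1 larvae, against 0.226% ± 0.0655 in wild-type larvae. The summed level of the cytosolic pair was 151 ± 19.1 CPM in div-1 larvae and 166 ± 23.4 CPM in wild-type larvae, and its groups overlapped (two-sided exact permutation p = 0.5).

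The mitochondrial pair leaned in opposite directions, and neither gene passed the threshold. sod-2 held 768, 783 and 741 counts in div-1 larvae and 1077, 971 and 909 in wild-type larvae. Its level was 29.2 ± 2.65 CPM in div-1 larvae and 39.3 ± 4.22 CPM in wild-type larvae (SD, n = 3 each), and all mutant libraries were below all wild-type libraries. The log2 fold change was -0.43 with a 95% interval of -0.75 to -0.10 (unadjusted p = 0.0161 and adjusted p = 0.302, edgeR). Of the members, sod-5 (higher) and sod-2 (lower) had groups that did not overlap, as had 17.9% of all tested genes, 10.2% higher and 7.73% lower. sod-3 held 172, 262 and 261 counts in div-1 larvae and 107, 217 and 148 in wild-type larvae. Mutant replicate 1 was below wild-type replicate 2 in sod-3 CPM, at 6.15 against 8.28. The means were 8.93 ± 2.45 CPM in div-1 larvae and 6.21 ± 1.96 CPM in wild-type larvae, a log2 fold change of 0.52 with a 95% interval of -0.17 to 1.21 (adjusted p = 0.596, edgeR). The sod-3 value was 0.32 without wild-type replicate 1, the library with the high fasting genes, and 0.78 without wild-type replicate 2. sod-3 was the most variable superoxide dismutase within groups, with a coefficient of variation of 27.4% in div-1 larvae and 31.6% in wild-type larvae.

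Within libraries, sod-3 was higher relative to sod-2 in all mutant libraries. The ratio of sod-3 to sod-2 counts was 0.224, 0.335 and 0.352 in div-1 larvae, and 0.0994, 0.223 and 0.163 in wild-type larvae. The groups touched without overlapping, since mutant replicate 1 and wild-type replicate 2 were nearly equal (two-sided exact permutation p = 0.1, and p = 0.14 adjusted over 7 ratios). Leaving out any library, the log2 difference of this ratio stayed between 0.64 and 1.22, and the value of 0.64 came without wild-type replicate 1. The summed level of both mitochondrial genes was 38.2 ± 4.73 CPM in div-1 larvae and 45.5 ± 2.97 CPM in wild-type larvae (SD, n = 3 each; two-sided exact permutation p = 0.2).

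sod-4, the extracellular form, was among the abundant members and took a larger part of the superoxide dismutase counts in div-1 larvae. Its row held 3260, 3515 and 3771 counts in div-1 larvae and 2413, 3202 and 2437 in wild-type larvae. In CPM it was at 117, 145 and 142 in div-1 larvae, and at 98.9, 122 and 98.2 in wild-type larvae. Mutant replicate 1 was below wild-type replicate 2, so the groups overlapped. The log2 fold change was 0.34 with a 95% interval of -0.02 to 0.69 (adjusted p = 0.492, edgeR). The ratio of sod-4 counts to those of the other superoxide dismutases separated the libraries more clearly. It was 0.712, 0.689 and 0.731 in div-1 larvae, and 0.450, 0.528 and 0.538 in wild-type larvae (two-sided exact permutation p = 0.1, and p = 0.14 adjusted over 7 ratios). The gap between groups was wider than the spread within either. sod-4 thus gave 41.5% ± 0.725 of superoxide dismutase counts in div-1 larvae and 33.5% ± 2.18 in wild-type larvae, and these ranges did not overlap. The share of sod-1 was 45.1% ± 0.746 in div-1 larvae and 51.8% ± 2.06 in wild-type larvae, and that of sod-2 was 9.06% ± 0.751 in div-1 larvae and 12.5% ± 1.75 in wild-type larvae.

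All superoxide dismutases together were at 324 ± 38.9 CPM in div-1 larvae and 318 ± 36.3 CPM in wild-type larvae (SD, n = 3 each), a mean log2 difference of 0.03 (two-sided exact permutation p = 0.8). The summed level thus differed by less than the spread between libraries, while the shares of sod-1, sod-2, sod-4 and sod-5 in it did not overlap between groups. These shares are parts of the same total and are not independent, since a larger share of sod-4 lowers those of the others. How often shares within other gene families separate the groups was not computed. In CPM, sod-1 and sod-4 overlapped between groups, and only sod-2 and sod-5 did not overlap, as was so for 17.9% of all tested genes. The ratio of cytosolic to mitochondrial superoxide dismutase counts was 3.97 ± 0.157 in div-1 larvae and 3.64 ± 0.417 in wild-type larvae, and its groups overlapped (two-sided exact permutation p = 0.3). The mean log2 difference of this ratio, 0.13, was 0.059 without wild-type replicate 3 and 0.22 without wild-type replicate 2.

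**Figure D2:**
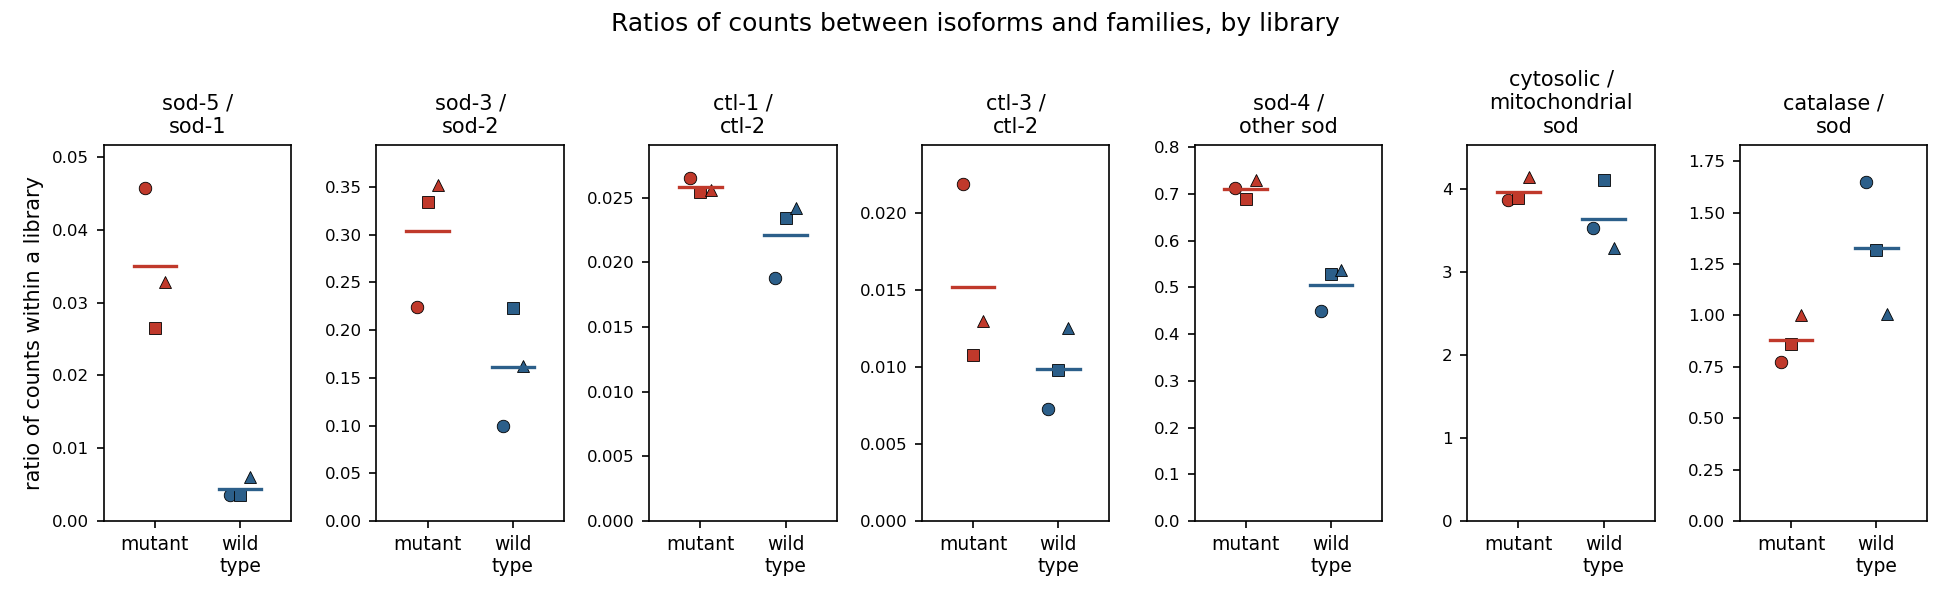
Ratio of counts within each library (vertical axes from 0, different scales) for 7 pairs of isoforms or families, div-1 mutant in red on the left and wild type in blue on the right of each panel, with bars for group means and circles, squares and triangles for replicates 1, 2 and 3. The groups do not overlap for sod-5 over sod-1, sod-3 over sod-2, ctl-1 over ctl-2, sod-4 over the other sod genes and catalase over sod.

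Catalase transcripts were almost entirely those of ctl-2. It gave 96.1% ± 0.594 of catalase counts in div-1 larvae and 96.9% ± 0.512 in wild-type larvae. The ctl-2 row held 5766, 7151 and 8635 counts in div-1 larvae and 12508, 11838 and 6775 in wild-type larvae. In CPM it was at 206, 295 and 325 in div-1 larvae, and at 513, 452 and 273 in wild-type larvae. Wild-type replicate 3 fell within the range of the mutant, whereas wild-type replicates 1 and 2 were above all mutant libraries. The log2 fold change was -0.58 with a 95% interval of -1.21 to 0.04 (adjusted p = 0.50, edgeR). It was -0.40 without wild-type replicate 1, which also had the high fasting genes, and -0.81 without wild-type replicate 3, and neither passed the threshold (adjusted p = 0.762 and 0.205, edgeR). It was -0.23 without mutant replicate 1 and wild-type replicate 1 together (adjusted p = 0.753, edgeR). The part of that library's fasting genes in the ctl-2 value was not tested.

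ctl-1 was far below ctl-2 and did not pass the threshold. Its row held 153, 182 and 221 counts in div-1 larvae and 235, 277 and 164 in wild-type larvae. In CPM, the lowest library of each group was the same for sod-1, sod-2, sod-4, ctl-1 and ctl-2, namely mutant replicate 1 and wild-type replicate 3. ctl-1 averaged 7.10 ± 1.47 CPM in div-1 larvae and 8.94 ± 2.07 CPM in wild-type larvae (SD, n = 3 each), with a log2 fold change of -0.33 and a 95% interval of -0.90 to 0.23 (adjusted p = 0.682, edgeR). It was -0.18 without mutant replicate 1, -0.20 without wild-type replicate 2 and -0.52 without wild-type replicate 3. The ratio of ctl-1 to ctl-2 counts was 0.0265, 0.0255 and 0.0256 in div-1 larvae, and 0.0188, 0.0234 and 0.0242 in wild-type larvae. The groups did not overlap, with a gap smaller than the spread of the wild type (two-sided exact permutation p = 0.1, and p = 0.14 adjusted over 7 ratios). The mean log2 difference of this ratio was 0.23, and 0.12 without wild-type replicate 1. Whether ctl-2 reads were counted for ctl-1 was not tested.

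ctl-3 was the least abundant catalase and its groups overlapped. It held 126, 77 and 112 counts in div-1 larvae and 91, 116 and 85 in wild-type larvae. The means were 3.97 ± 0.703 CPM in div-1 larvae and 3.86 ± 0.514 CPM in wild-type larvae (SD, n = 3 each). Its log2 fold change was 0.04 with a 95% interval of -0.48 to 0.56 (adjusted p = 0.963, edgeR), and its sign turned with the library left out, from -0.06 to 0.17. The interval leaves room for a change of up to 1.47-fold upward or 1.39-fold downward. Unlike ctl-1, ctl-3 did not share the low values of mutant replicate 1, where it was highest. Its ratio to ctl-2 overlapped between groups, at 0.0152 ± 0.00587 in div-1 larvae and 0.00987 ± 0.00264 in wild-type larvae (two-sided exact permutation p = 0.2). The mean log2 difference of that ratio was 0.59, against 0.29 when mutant replicate 1 was left out and 0.39 when wild-type replicate 1 was.

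**Figure D3:**
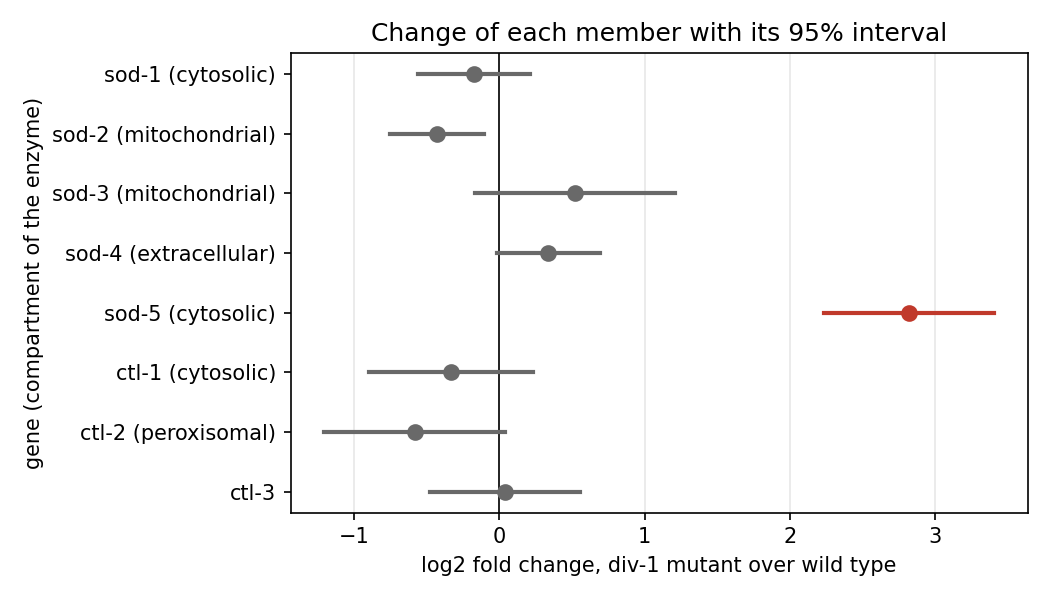
Log2 fold change of div-1 mutant over wild type for each member with its 95% interval from the edgeR fit, sod genes above ctl genes. The interval of sod-5 (red) runs from 2.24 to 3.41, that of sod-2 from -0.75 to -0.10, and the other 6 intervals include 0.

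The catalases together stood at 287 ± 63.0 CPM in div-1 larvae and 425 ± 127 CPM in wild-type larvae (SD, n = 3 each; two-sided exact permutation p = 0.3). The ratio of catalase to superoxide dismutase counts was 0.771, 0.860 and 1.00 in div-1 larvae, and 1.65, 1.32 and 1.01 in wild-type larvae. Mutant replicate 3 and wild-type replicate 3 were nearly equal and all other wild-type libraries were above all mutant libraries (two-sided exact permutation p = 0.1, and p = 0.14 adjusted over 7 ratios). The mean log2 difference of this ratio was -0.57, and -0.31 without mutant replicate 1 and wild-type replicate 1 together. In all, 5 of the 7 ratios did not overlap between groups, and none had an adjusted p below 0.14 (exact permutation). How often ratios of other genes separate the groups was not computed, so this count has no background to be read against. The 7 ratios share genes and are not independent of each other.

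Compared per length, the members spanned a wide range of levels. In div-1 larvae the order was sod-1 at 203 ± 27.5 CPM per kb of exon, ctl-2 at 171 ± 38.4, sod-4 at 103 ± 11.9, sod-2 at 36.4 ± 3.30, sod-3 at 10.1 ± 2.78, sod-5 at 7.08 ± 0.965, ctl-1 at 4.57 ± 0.945 and ctl-3 at 2.43 ± 0.431 CPM per kb (SD, n = 3). In wild-type larvae ctl-2 came first per exonic length at 256 ± 77.3 CPM per kb, then sod-1 at 229 ± 32.7, sod-4 at 81.5 ± 10.5, sod-2 at 49 ± 5.26, sod-3 at 7.05 ± 2.23, ctl-1 at 5.75 ± 1.33, ctl-3 at 2.37 ± 0.315 and sod-5 last at 0.997 ± 0.177 CPM per kb (SD, n = 3). sod-5 was thus the lowest of the 8 in wild-type larvae and above both ctl-1 and ctl-3 in div-1 larvae. Neighbours in this order did not overlap between libraries, except sod-1 and ctl-2 in both groups, sod-3 and sod-5 in div-1 larvae, and sod-3 and ctl-1 in wild-type larvae. The exons of sod-4 add up to 1306 bases and its longest coding sequence to 663, so per coding length sod-4 moved above ctl-2 in div-1 larvae, at 203 against 184 CPM per kb. Per coding length sod-1 also came before ctl-2 in wild-type larvae, at 306 against 275 CPM per kb.

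Exons of 5 members overlap those of a gene on the other strand in the annotation, and whether strand was used in counting is not given in the sources used here. The largest overlap, 175 bases, is that of sod-4 with ctr-9, a subunit of the PAF1 transcription elongation complex. ctr-9, listed as B0464.2, was at 121 ± 18.8 CPM in div-1 larvae and 117 ± 6.20 CPM in wild-type larvae (log2 fold change 0.06, adjusted p = 0.920, edgeR). sod-3 overlaps C08A9.3 by 65 bases, and C08A9.3 was at 0.627 CPM in div-1 larvae and 0.234 CPM in wild-type larvae on average. sod-5 has no such overlap. Of its 4 nearest annotated protein-coding neighbours, 3 were analysed and none passed the edgeR threshold. ZK430.5 came nearest, at 9.25 ± 4.20 CPM in div-1 larvae and 3.79 ± 1.31 CPM in wild-type larvae (log2 fold change 1.29, unadjusted p = 0.00920 and adjusted p = 0.229, edgeR). mlt-7, a haem peroxidase of the cuticle, had a log2 fold change of 0.23 (adjusted p = 0.756, edgeR), and ZK430.7 had -0.15 (adjusted p = 0.838, edgeR).

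The genes most like sod-5 over the 6 libraries, among 10672 protein-coding genes averaging 5 CPM or more, were nlp-34 (r = 0.998), nspb-12 (r = 0.998) and C04A11.1 (r = 0.998), by Pearson correlation of log2 CPM. nlp-34, an antimicrobial peptide gene of the epidermis, stood at 29.9 CPM in div-1 larvae and 9.71 CPM in wild-type larvae on average. In all, 268 genes had an r with sod-5 above 0.9. The 6 points share the split into 2 groups, so the likeness is given as a description. For sod-3 the nearest were ncr-2, a homologue of the cholesterol transporter NPC1 (r = 0.992), nhr-94, a nuclear hormone receptor (r = 0.991), and B0416.7 (r = 0.988). For ctl-1 they were W10D9.3 (r = 0.999), ZK524.4 (r = 0.996) and Y12A6A.1 (r = 0.996).

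No gene of the surrounding pathways passed the edgeR threshold. Over 9 lists with 127 tested genes, edgeR called 0. At an unadjusted p under 0.05, 12 of them were higher and 4 were lower, where 8.26% of all tested genes were higher and 2.44% lower. DESeq2 called 3 of these genes and limma voom 0. Their median log2 fold change was 0.01, beside -0.03 over all tested genes and -0.07 over the 8 members.

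The other enzymes that remove peroxide, 11 peroxiredoxins and glutathione peroxidases, had a median log2 fold change of 0.19, and 6 were positive. Groups did not overlap for 4 of the 11, all higher in div-1 larvae, beside 10.2% of all tested genes. prdx-2, prdx-3 and prdx-6, the peroxiredoxins, had values of -0.23, -0.42 and -0.39, none past the threshold (adjusted p = 0.737, 0.497 and 0.566, edgeR). prdx-3, the mitochondrial one, was at 61.0 ± 12.1 CPM in div-1 larvae and 81.5 ± 13.2 CPM in wild-type larvae (SD, n = 3 each). gpx-1, a glutathione peroxidase listed as F26E4.12, was at 68.7, 42.6 and 42.8 CPM in div-1 larvae, and at 25.2, 23.2 and 35.4 CPM in wild-type larvae. Its groups did not overlap, with a log2 fold change of 0.88 (unadjusted p = 0.00720 and adjusted p = 0.196, edgeR).

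Among 16 tested genes of thioredoxin and glutathione reduction, 4 had a positive log2 fold change and the median was -0.17. trx-3, a thioredoxin of the intestine, was at 17.0, 23.7 and 21.9 CPM in div-1 larvae, and at 12.4, 12.2 and 11.1 CPM in wild-type larvae. Its groups did not overlap and its log2 fold change was 0.81, short of the threshold (adjusted p = 0.0826, edgeR). trx-1, a thioredoxin of the ASJ neurons, had a log2 fold change of 0.57 (adjusted p = 0.417, edgeR).

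The lists tied to the transcription factors of oxidative stress held no gene past the edgeR threshold. Among 13 tested targets of SKN-1, the worm counterpart of NRF2, 10 were positive with a median of 0.14, and the lowest p values were those of sdz-8 (log2 fold change 0.76, adjusted p = 0.321, edgeR) and gst-5, a glutathione S-transferase (0.64, adjusted p = 0.391, edgeR). Among 17 tested genes known or listed as DAF-16 targets, 7 were positive with a median of -0.20. djr-1.1, a homologue of DJ-1, had a log2 fold change of -0.48 (adjusted p = 0.398, edgeR), and lea-1, a desiccation protection protein, of 0.32 (adjusted p = 0.527, edgeR). mtl-1, a metallothionein often read together with sod-3, had 0.11 (adjusted p = 0.945, edgeR). It was chosen for mention with its value known. Among 16 regulators the median was -0.03. pdk-1, a kinase of the insulin pathway, had -0.33 (adjusted p = 0.387, edgeR), and skn-1 itself 0.29 (adjusted p = 0.551, edgeR). daf-16, likewise chosen, had 0.20 (adjusted p = 0.684, edgeR).

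The list of peroxisome genes, which holds membrane transporters and metabolic enzymes besides import factors, had 14 of 25 tested members positive and a median of 0.06. prx-11, of peroxisome division, was at 20.2 ± 3.18 CPM in div-1 larvae and 13.5 ± 1.23 CPM in wild-type larvae (log2 fold change 0.58, adjusted p = 0.210, edgeR). pmp-4, a peroxisomal transporter of the ABC class, had 0.30 (adjusted p = 0.421, edgeR). Of 10 tested genes in the list of dual oxidases, haem peroxidases and related genes, 8 were positive with a median of 0.12. duox-2, a dual oxidase, had 0.86 (adjusted p = 0.377, edgeR), with 2.03 ± 0.434 CPM in div-1 larvae and 1.12 ± 0.353 CPM in wild-type larvae, and skpo-1, listed as F49E12.1, had 0.37 (adjusted p = 0.672, edgeR). Of 7 tested metal supply genes 4 were positive with a median of 0.09. cutc-1, of copper handling, had -0.27 (adjusted p = 0.589, edgeR), and ftn-1, a ferritin, 0.48 (adjusted p = 0.642, edgeR).

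Fasting genes were the widest list, and wild-type replicate 1 stood apart in it. The summed level of the list was 2051 to 2333 CPM in div-1 larvae, and 6536, 2151 and 2536 CPM in wild-type replicates 1, 2 and 3. Of 16 tested members 7 were positive and the median was -0.13. fil-2, a lipase gene induced by fasting, was at 5.37, 2.68 and 4.37 CPM in div-1 larvae, and at 1.35, 0.802 and 1.37 CPM in wild-type larvae, a log2 fold change of 1.82 just short of the threshold (adjusted p = 0.0639, edgeR). sod-5 was at 0.615 CPM in wild-type replicate 1 and at 0.649 and 0.847 CPM in the other wild-type libraries, and its log2 fold change without that library was 2.73.

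**Figure D4:**
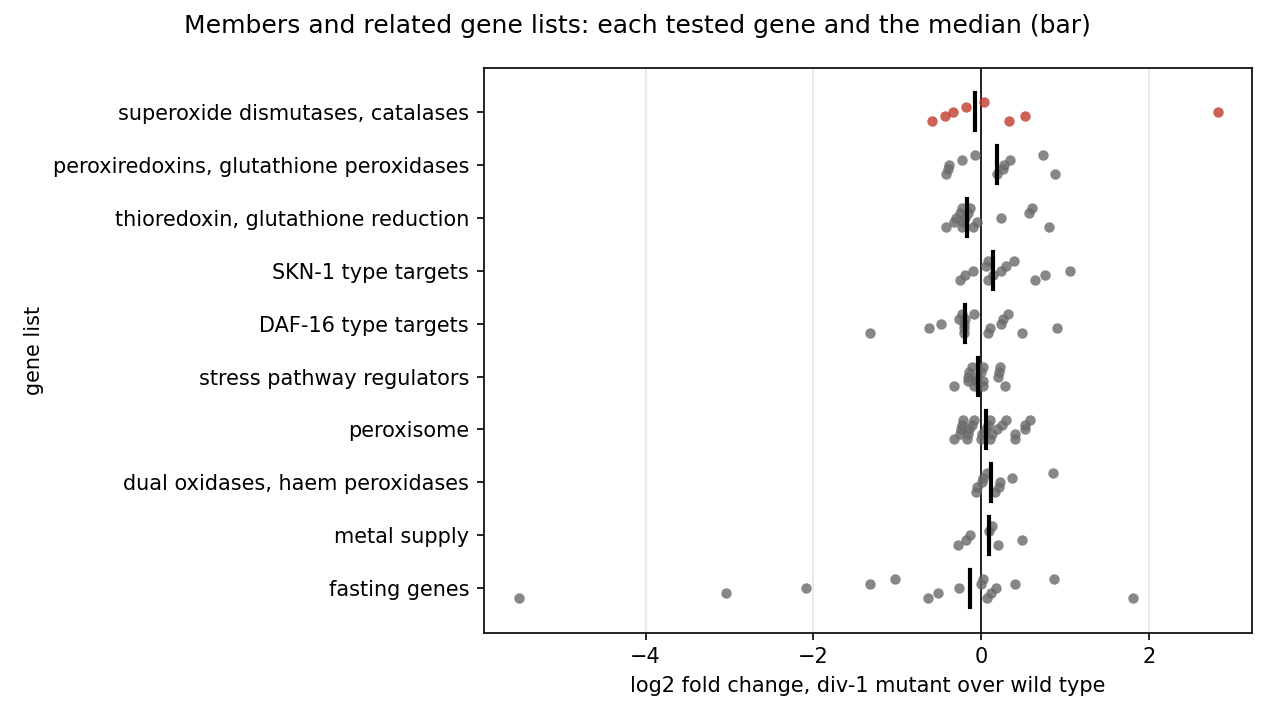
Log2 fold change of div-1 mutant over wild type for each tested gene of the members (red, top row) and of 9 related lists (grey), with a bar at each median. sod-5, at 2.82, lies to the right of every other gene shown, and the fasting list reaches down to -5.52 (acs-2).

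Tissue and stage markers overlapped between groups in their summed levels. All 45 marker genes of 7 lists had counts, and none of 43 tested passed the edgeR threshold, while an unadjusted p under 0.05 was reached by 0 higher and 1 lower gene. The summed level of 7 neuronal markers was 1605 to 2354 CPM in div-1 larvae and 1832 to 2443 CPM in wild-type larvae. That of 6 intestinal markers was 1179 to 1451 CPM in div-1 larvae and 1237 to 1291 CPM in wild-type larvae. The 7 embryonic markers summed to 95.7 to 107 CPM in div-1 larvae and 68.0 to 122 CPM in wild-type larvae, and the 7 germline markers to 96.4 to 125 CPM in div-1 larvae and 112 to 123 CPM in wild-type larvae. Epidermis, pharynx and body wall muscle markers likewise overlapped between groups in their sums. Mutant replicate 1 was the mutant library lowest in CPM of sod-1, sod-2, sod-3, sod-4, ctl-1 and ctl-2. It was also the lowest mutant library in 4 of the 7 sums, those of intestine, pharynx, body wall muscle and neurons. In the sums of epidermis, germline and embryo markers it was the highest mutant library. Its epidermis markers summed to 1907 CPM, against 1514 and 1760 CPM in mutant replicates 2 and 3. Its pharynx markers summed to 1529 CPM, against 2333 and 2576 CPM in mutant replicates 2 and 3. Its body wall muscle markers summed to 9673 CPM, against 13374 and 13139 CPM, and its neuronal markers to 1605 CPM, against 2354 and 2108 CPM. The part of these marker differences in the values of the members was not tested. The single marker at an unadjusted p under 0.05 was cgh-1, a germline RNA helicase, with a log2 fold change of -0.30 (adjusted p = 0.421, edgeR).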

How the data were processed

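The authors deposited raw counts per feature, 1 column per library; columns were matched to samples by their names. Per the submitters' processing notes, the tools were TopHat2 (2.1.0), featureCounts (1.5.0) and DESeq2 (1.8.1), with no role or option stated. The sources used here give no genome build, annotation or strand setting. Per the labels' protocols, RNA ends were repaired and libraries made with a small RNA kit. The table has 99774 rows; the 53925 repeat and 13 reporter construct rows were left out of library sizes. Of 45836 gene rows, 44336 matched Ensembl release 115.

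The test across genes was that of edgeR (4.0.16, under R 4.3.3), with TMM factors, the default expression filter, robust quasi-likelihood fit on group, two-sided. CPM uses effective library sizes. Ratios are printed from raw counts; their log2 values, with 0.5 added to each count, were compared by exact permutation over 20 assignments. DESeq2 1.42.0, limma voom 3.58.1, other scalings and filters, a replicate block and each library left out served as alternatives. The members are named by family, with no value in the rule, but members, gene lists, ratios and tests were all chosen with earlier results of these data known. Named genes are the members, list genes past the threshold or else the 2 of lowest p, the 3 genes most like a called member, sod-3 and ctl-1, the neighbours of a called member, and div-1 and mut-16 where needed; the peroxiredoxins, mtl-1, daf-16, ctr-9 and C08A9.3 were added after their values were seen.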

Additional observations from a re-analysis of the deposited data

How the results depend on the processing

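1 member, sod-5, was past the threshold in all 17 alternatives, with log2 fold changes of 2.63 to 2.97, and sod-1 to sod-5, ctl-1 and ctl-2 kept their sign in all of them. ctl-3 turned sign: leaving out a library gave -0.06 to 0.17, and leaving out mutant replicate 1 and wild-type replicate 1 together, chosen after seeing the data, gave -0.088; the cause was not tested. The 7 ratios kept their direction in all 10 alternatives, but not their size: without both replicates 1, ctl-1 over ctl-2 was 0.10, ctl-3 over ctl-2 0.093 and catalase over sod -0.31 on the log2 scale. The count of called genes, 146, became 306 with no filter, 556 with DESeq2, 68 without both replicates 1, 36 to 116 without a single library and 52 with the replicate block; the block changed no call among the members, and sod-5 stayed at 2.82 on the log2 scale (adjusted p = 0.0283, edgeR). The highest r between deviations of a mutant and a wild-type library, 0.60, was that of mutant replicate 1 with wild-type replicate 3. Same-numbered libraries deviated together only for number 2 (r = -0.21, 0.48 and -0.29 for numbers 1, 2 and 3), so the numbers were not used as pairs. These are the numbers in the sample titles; the column names give the libraries titled 1 different numbers in the 2 groups, so that pair in the block rests on the titles alone. The count of list genes called, 0, became 1 with upper-quartile factors, 1 with library size only, 3 with DESeq2 (added after seeing the data) and 0 to 1 without a library. Per coding length, mean levels over 6 libraries became 288 CPM per kb for sod-1, 51.7 for sod-2, 11.6 for sod-3 and 182 for sod-4, since coding lengths are shorter. With 53 counts over the wild-type libraries, the low level of sod-5 there is counted coarsely.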
